A study of Mus musculus with 4 samples.

Results

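The TNF superfamily comprises cytokine ligands, most of them trimers that sit in the membrane of the cell that makes them, and the receptors that bind them. Some receptors carry a death domain and can start caspase activation, others bind TRAF adaptor proteins and activate NF-kappaB, and a few act as decoys. In the B lineage the family is known for survival signals through the receptor of BAFF, for lymphoid tissue organisation through lymphotoxin, and for costimulation by T cells through CD40. Members were taken by symbol from the count table, as all genes named Tnfsf or Tnfrsf with a number, plus Tnf, Lta, Ltb, Ltbr, Cd40, Cd27 and Cd70. This gave 38 of the 24411 genes in the table, 15 ligands and 23 receptors.

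The libraries came from bone marrow pro-B cells of C57BL/6 mice, sorted on B220, CD43 and HSA (CD24), each from its own mouse. The knockout group (KO) was 2 Tnpo3fl/fl mb1Cre mice, numbers 51 and 63, and the control group (WT) was 2 Tnpo3+/+ mb1Cre mice, numbers 55 and 69. Both groups carry mb1Cre, a Cre recombinase driven by the B-lineage gene Cd79a, and the labels give no age for the mice. Tnpo3 encodes transportin 3, a nuclear import receptor for splicing factors rich in serine and arginine, and the comparison asks which transcripts differ when it is removed in this lineage. Total counts were 40647384 and 30440627 in KO 51 and KO 63, and 32697489 and 26211372 in WT 55 and WT 69. CPM below are counts scaled to the size of their library after TMM, which evens out library composition, and each fold change is KO over WT, tested over 13507 genes by edgeR's quasi-likelihood test at an adjusted p of 0.05.

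Tnpo3 itself was at 79.7 and 68.8 CPM in KO 51 and KO 63, against 159 and 148 CPM in WT 55 and WT 69 (log2 fold change -1.05 ± 0.14, SE, adjusted p = 0.0108, or 0.0603 without KO 63). Markers of other cells differed between the same libraries. All 10 pro-B markers listed were detected in every library, with a summed level of 3314 and 2609 CPM in KO and 8257 and 10065 CPM in WT. Of them, 7 were called lower in KO (70.0%, beside 10.9% of all genes tested), and Vpreb1, Igll1 and Dntt did not pass. Each of those was higher in WT 69 than in WT 55. Dntt, for example, was at 605 CPM in WT 55 and 1703 CPM in WT 69. In KO 51 and KO 63 it was at 932 and 735 CPM. The 12 dendritic cell markers summed to 7481 and 10218 CPM in KO 51 and KO 63, against 1318 and 682 CPM in WT 55 and WT 69, and Batf3 alone among them was at 0 in any library (WT 55). The largest part of that sum was Irf8 (2839 and 3835 CPM in KO 51 and KO 63, 607 and 318 CPM in WT 55 and WT 69). Xcr1, Zbtb46 and Batf3 had at most 2.32 CPM in any library. The 10 NK cell markers summed to 889 and 242 CPM in KO 51 and KO 63, against 42.5 and 39.8 CPM in WT, with none at 0. The 10 T cell markers summed to 223 and 156 CPM in KO and 59.0 and 94.5 CPM in WT, with Trat1 at 0 in WT 69. Most of that sum was Lck (126 and 83.7 CPM in KO 51 and KO 63, 41.8 and 61.5 CPM in WT 55 and WT 69), which did not pass. Of the 9 T cell markers tested, 2 were called higher in KO (22.2%, beside 11.3% of all genes tested). Cd3e, for example, was at 5.99 CPM in KO 51 but 0.631 CPM in KO 63. The 9 of 10 listed myeloid markers in the table summed to 181 and 53.9 CPM in KO and 3193 and 2511 CPM in WT. Of 8 mature B cell markers 7 fell (87.5%, beside 10.9% of all genes tested). Of 8 plasma cell markers 2 rose and 2 fell (25.0% each). The part of these markers in the results on the family was not tested, and in bulk samples fewer cells of a type and less RNA per cell cannot be told apart.

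Of the 38 members, 34 passed the filter on low counts and were tested. Higher in KO were 9 of them, namely Tnf, Lta, Tnfsf11, Tnfrsf1a, Ltbr, Tnfrsf14, Tnfrsf9, Tnfrsf18 and Tnfrsf11a. Lower were 3, namely Ltb, Tnfrsf13c and Tnfrsf19. The other 22 did not pass. Members called higher were thus 26.5% of those tested, beside 11.3% of all genes tested, and members called lower were 8.82%, beside 10.9%. In either direction the share was 35.3% of the members and 22.2% of all genes. Over the members tested the median log2 fold change was 0.69, beside -0.02 over all genes tested. Both KO libraries lay above both WT libraries for 15 of the 34 members tested and below them for 9. Among the 13507 genes tested they lay above for 4452 (33.0%) and below for 4667 (34.6%). Groups that do not overlap were thus common, and by themselves do not mark a change. The counts of members describe those that passed the filter and carry no test of the family as a group.

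**Figure D1:**
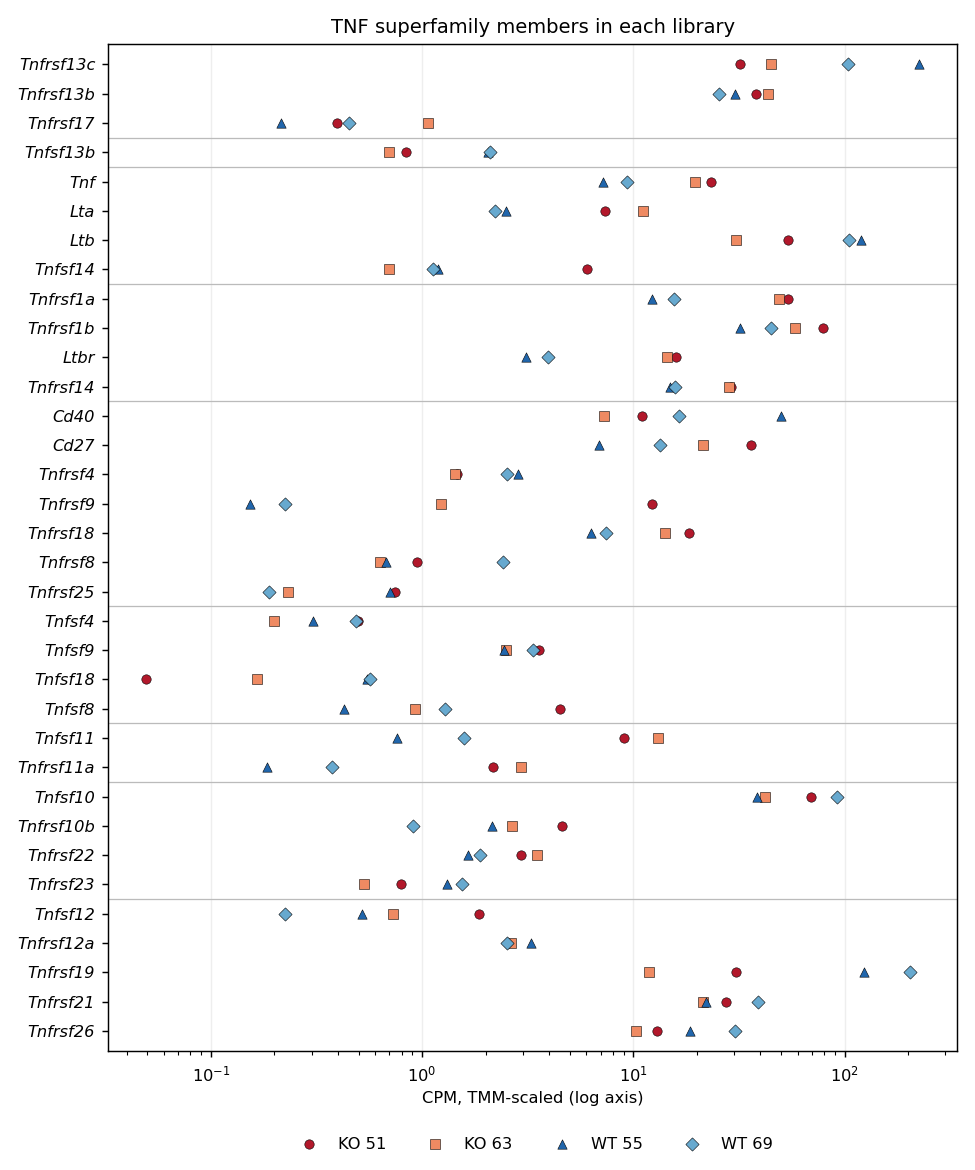
Level of each of the 34 members tested in each library, as CPM on a log axis, with lines between the groups of members (from the top, receptors and ligands of BAFF and APRIL, ligands and receptors of TNF and lymphotoxin, costimulatory receptors and ligands, RANK, TRAIL and others). The KO and WT symbols are apart for Tnfrsf1a, Ltbr, Tnfsf11 and Tnfrsf19, whereas KO 51 stands away from KO 63 for Tnfrsf9, Tnfsf14 and Tnfsf8.

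**Figure D2:**
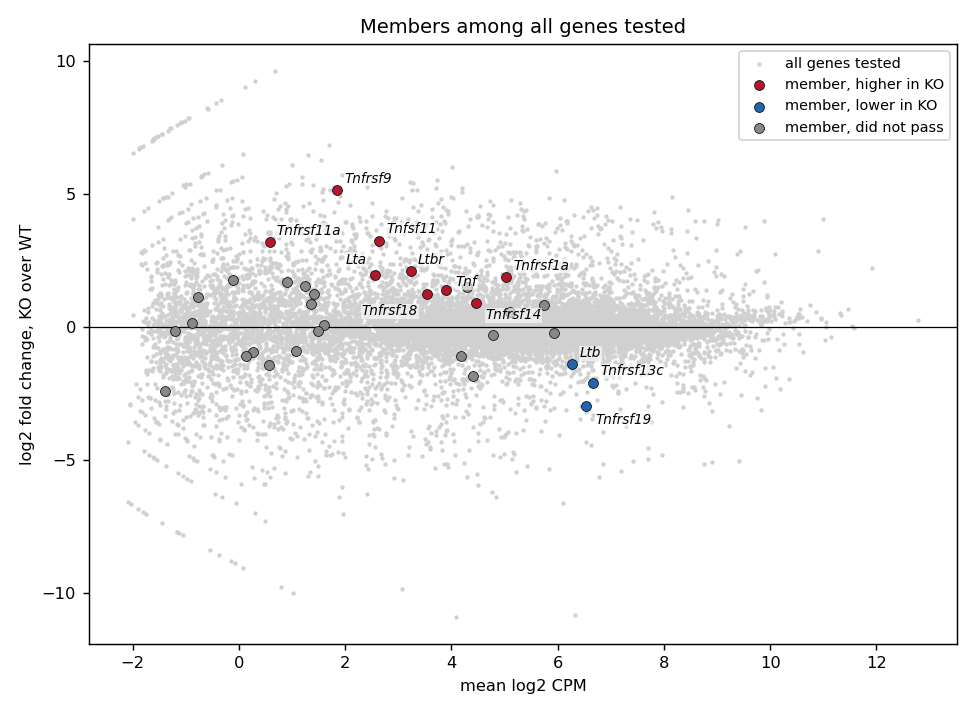
Log2 fold change (KO over WT) against mean log2 CPM for the 13507 genes tested, with the members coloured by their call. The 3 lower members are among the members with the highest levels, and Tnfrsf9 has the largest fold change of the 34 members tested.

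The genes Ltb, Tnf and Lta lie side by side on chromosome 17 (GRCm38, GENCODE M21: Ltb 35194439 to 35196320 on the plus strand, Tnf 35199381 to 35202007 and Lta 35203165 to 35205351 on the minus strand), with gaps of 3061 and 1158 bases. Because neighbours in this locus were called in opposite directions, the 250 bases before each start are shown, read 5′ to 3′ on the gene's own strand, from RefSeq (GRCm38.p6). Capitals mark matches, on either strand, to a loose form of the kappaB motif bound by NF-kappaB (GGG, any 5 bases, CC), with overlapping matches joined.
Ltb, chr17:35194257-35194506, plus strand: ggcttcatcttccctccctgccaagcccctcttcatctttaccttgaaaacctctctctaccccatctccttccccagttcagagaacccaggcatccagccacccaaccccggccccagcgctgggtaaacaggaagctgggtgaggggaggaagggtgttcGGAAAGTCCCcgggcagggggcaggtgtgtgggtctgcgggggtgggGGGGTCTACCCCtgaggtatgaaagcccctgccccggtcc
Tnf, chr17:35202008-35202257, minus strand: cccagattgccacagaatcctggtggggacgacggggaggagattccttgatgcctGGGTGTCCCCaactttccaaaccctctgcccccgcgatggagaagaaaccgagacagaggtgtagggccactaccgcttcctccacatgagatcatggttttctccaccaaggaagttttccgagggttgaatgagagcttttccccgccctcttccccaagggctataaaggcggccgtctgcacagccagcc
Lta, chr17:35205352-35205601, minus strand: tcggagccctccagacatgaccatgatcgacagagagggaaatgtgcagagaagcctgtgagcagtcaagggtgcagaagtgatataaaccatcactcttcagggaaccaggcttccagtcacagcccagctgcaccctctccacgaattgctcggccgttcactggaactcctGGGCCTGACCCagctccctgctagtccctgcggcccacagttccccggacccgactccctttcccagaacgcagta
RefSeq starts Ltb inside the GENCODE gene, so the end of the Ltb window overlaps that gene. The Ltb window held 4 matches, 3 of them overlapping, the Lta window 2 overlapping ones and the Tnf window 1. Of 32851 windows of this length before annotated starts, 45.8% held the loose motif. Of the 33 windows of 29 member genes, 20 held it. A narrower form that lies within the loose one (GGG, any 2 bases, TTTCC) occurred in 1.41% of all windows, and among the members it was found before Ltb (as GGAAAGTCCC, from 87 bases before the start), Tnfrsf9 and Tnfrsf25. The motifs of EBF1 (TCCC, any 2 bases, GGGA), the octamer (ATTTGCAT) and ETS with IRF (GGAA, any 2 bases, GAAA), also read on both strands, were in 0 of the 33 member windows, and in 0.779%, 1.6% and 2.3% of all windows. A match is a description of the letters and not evidence of binding.

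Of this locus, Tnf and Lta were higher in KO and Ltb was lower. Tnf, the founding ligand of the family, was at 23.3 and 19.7 CPM in KO 51 and KO 63, against 7.18 and 9.28 CPM in WT 55 and WT 69. The groups did not overlap, and the log2 fold change was 1.39 ± 0.25 (SE, adjusted p = 0.0191 by edgeR). Lta encodes lymphotoxin alpha, which signals through the TNF receptors as a homotrimer and through the lymphotoxin beta receptor when joined to the product of Ltb. It had 7.38 and 11.1 CPM in KO 51 and KO 63, against 2.51 and 2.22 CPM in WT 55 and WT 69, again with no overlap (1.97 ± 0.35, adjusted p = 0.0191). Ltb, which encodes the membrane anchor of that complex, fell to 54.1 and 30.8 CPM in KO 51 and KO 63, against 120 and 105 CPM in WT 55 and WT 69 (-1.41 ± 0.28, adjusted p = 0.0258). Per kilobase of exon, the level of Ltb over that of Lta was 6.69 and 2.52 in KO 51 and KO 63, and 43.6 and 43.4 in WT 55 and WT 69. The ratio of Tnf to Lta, by contrast, was 2.67 and 1.49 in KO and 2.42 and 3.53 in WT, and overlapped. The Tnf call was lost without KO 51 (adjusted p = 0.0766 by edgeR) and kept without KO 63 (0.0484). The calls of Lta and Ltb were lost without KO 63 (0.0801 and 0.0534) and kept without KO 51 (0.0280 and 0.0130). Tnfsf14 (LIGHT), which binds Ltbr and Tnfrsf14, was at 6.02 CPM in KO 51 but 0.697 CPM in KO 63, against 1.19 and 1.13 CPM in WT, and did not pass (1.54 ± 0.97, adjusted p = 0.298). Without KO 51 its log2 fold change was -0.73, and without KO 63 it was 2.37 with an adjusted p of 0.0418.

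Of the 4 receptors for these ligands 3 rose. Tnfrsf1a, the TNF receptor that carries a death domain, was at 53.7 and 49.0 CPM in KO 51 and KO 63, against 12.3 and 15.6 CPM in WT 55 and WT 69. Its log2 fold change of 1.88 ± 0.20 (adjusted p = 0.00680) passed under each of the 12 alternatives, of which the one at a false discovery rate of 0.1 could only keep the call. Ltbr, the lymphotoxin beta receptor, had 15.9 and 14.4 CPM in KO, against 3.09 and 3.95 CPM in WT (2.11 ± 0.27, adjusted p = 0.0101), and also passed under each. Tnfrsf14 (HVEM), the other receptor of LIGHT, was at 29.1 and 28.4 CPM in KO and 15.0 and 15.8 CPM in WT, a smaller change (0.90 ± 0.18, adjusted p = 0.0254) that missed the threshold without KO 51 or without KO 63 (0.111 and 0.109). For Tnfrsf1b, the TNF receptor without a death domain, levels were 79.0 and 58.2 CPM in KO and 31.9 and 45.1 CPM in WT, with no overlap, yet its adjusted p was 0.0648 in edgeR. It passed with DESeq2 (0.0173), without a filter (0.0280) and without WT 69 (0.0148), and its highest adjusted p was 0.264, without KO 51. Cd27, Ltbr and Tnfrsf1a share a stretch of chromosome 6 (125232622 to 125362484), and all 3 had positive fold changes, though Cd27 did not pass. This stretch was picked after its values were seen. Some neighbouring members elsewhere differed in sign, such as Tnfrsf4 (-0.89) and Tnfrsf18 (1.25) on chromosome 4.

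The RANK system differed most among the pairs with both genes called. Tnfsf11 encodes RANKL, the osteoclast differentiation factor, which is also made by lymphocytes. Its level was 9.07 and 13.1 CPM in KO 51 and KO 63, against 0.764 and 1.58 CPM in WT 55 and WT 69. The KO values were well above those of WT (3.25 ± 0.47, adjusted p = 0.0126), also under each alternative, and the log2 fold change was 3.85 without WT 69. Tnfrsf11a, its receptor RANK, had 87 and 89 counts in KO 51 and KO 63 and 6 and 10 in WT 55 and WT 69, or 2.15 and 2.95 CPM against 0.183 and 0.376 CPM. The log2 fold change was 3.19 ± 0.58 (adjusted p = 0.0198, and 0.0712 without KO 63). Tnfrsf11b, the soluble decoy for RANKL, had 0 counts in every library, which allows up to 0.0743 and 0.0996 CPM in KO 51 and KO 63 and 0.0917 and 0.113 CPM in WT 55 and WT 69. The summed level of the dendritic cell markers was higher in both KO libraries. Of the 12, 10 rose (83.3%, beside 11.3% of all genes tested), with Xcr1 and Cd209a not passing. The summed levels of the NK and T cell markers were higher in both KO libraries too. Stromal and endothelial markers summed to 434 and 448 CPM in KO 51 and KO 63, against 269 and 213 CPM in WT 55 and WT 69. Of the 7 of them tested, 2 were called higher and 2 lower (28.6% each). The part of any of these markers in the levels of Tnfsf11 and Tnfrsf11a was not tested.

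Among receptors of the BAFF and APRIL system, Tnfrsf13c fell and the other 2 did not pass. Tnfrsf13c encodes the BAFF receptor and was at 32.05 and 44.9 CPM in KO 51 and KO 63, against 225 and 104 CPM in WT 55 and WT 69. The WT mice differed from each other 2.17-fold, but both lay above KO (-2.09 ± 0.40, adjusted p = 0.0223, and 0.0661 without KO 51). Without WT 55 the log2 fold change of Tnfrsf13c was -1.40 and the call was kept (0.00565). Tnfrsf13b, which encodes TACI, was at 38.04 and 43.4 CPM in KO and 30.2 and 25.4 CPM in WT (0.55 ± 0.18, adjusted p = 0.0877). Per kilobase of exon the level of Tnfrsf13b was 0.857 and 0.697 of that of Tnfrsf13c in KO 51 and KO 63, and 0.0970 and 0.177 of it in WT 55 and WT 69. Tnfrsf17 (BCMA), the plasma cell receptor, had 16 and 32 counts in KO and 7 and 12 in WT, with overlapping CPM (adjusted p = 0.333). The ligand BAFF, from Tnfsf13b, was low in all libraries, at 0.842 and 0.697 CPM in KO and 2.05 and 2.10 CPM in WT, with no overlap (-1.42 ± 0.44, adjusted p = 0.0728). Tnfsf13 (APRIL) had 4 and 0 counts in KO and 4 in each WT library and was not tested. It shares 60.0% of its exon bases with Tnfsf13os and a readthrough gene, so its count is uncertain in any case.

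Like Tnfrsf13c, Cd40 was highest in WT 55. Cd40, the receptor for T cell help, was at 11.0 and 7.23 CPM in KO 51 and KO 63, against 49.9 and 16.5 CPM in WT 55 and WT 69. Although the groups did not overlap, the WT spread was 3.03-fold and the gene did not pass in edgeR (-1.86 ± 0.56, adjusted p = 0.0677), whereas it passed with DESeq2 (0.00326), without a filter (0.0228) and without WT 69 (-2.44, 0.00142). Without WT 55 the log2 fold change of Cd40 was -0.81 (adjusted p = 0.153 by edgeR), and its highest adjusted p was 0.206, without KO 63. Mature B cell markers also differed between the WT mice. Fcer2a (CD23), for example, was at 1.24 and 2.69 CPM in KO 51 and KO 63, against 99.4 and 17.0 CPM in WT 55 and WT 69, and Cr2 at 0.347 and 1.13 CPM, against 35.2 and 6.84 CPM. Their part in the levels of Cd40 and Tnfrsf13c was not tested.

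Of the 7 costimulatory receptors, Tnfrsf18 and Tnfrsf9 rose (28.6%, beside 11.3% of all genes tested) and 0 fell in edgeR. Tnfrsf18 (GITR) was at 18.4 and 14.1 CPM in KO 51 and KO 63, against 6.33 and 7.40 CPM in WT 55 and WT 69. It rose with a log2 fold change of 1.25 ± 0.26 (adjusted p = 0.0283), but missed the threshold without KO 51 or KO 63 (0.129 and 0.0566), and 27.2% of its exon bases overlap an opposite-strand gene. Tnfrsf9 (4-1BB), a receptor of activated T and NK cells, had 494 and 37 counts in KO 51 and KO 63 and 5 and 6 in WT 55 and WT 69, which is 12.2 and 1.23 CPM against 0.153 and 0.225 CPM. Both KO libraries were above WT, and KO 51 was 9.96 times KO 63. The fitted log2 fold change was 5.15 ± 1.26 (adjusted p = 0.0406), 2.69 without KO 51 (0.0990) and 6.01 without KO 63 (0.00569). Tnfrsf9 also missed the threshold with limma-voom (0.140) and without WT 55 (0.0607). Of the 10 NK markers, 9 were also higher in KO 51 than in KO 63, the exception being Klrd1 (114 and 155 CPM). So were the T cell markers Cd3e, Cd3d, Cd3g, Lck, Bcl11b and Lat, whereas Cd5, Cd28, Trat1 and Foxp3 were not. The part of either list in the level of Tnfrsf9 was not tested. Cd27, a costimulatory receptor found on early lymphoid precursors and on T, NK and memory B cells, was at 36.0 and 21.5 CPM in KO and 6.91 and 13.4 CPM in WT. With no overlap and a log2 fold change of 1.505 ± 0.42 it stood just outside the threshold (adjusted p = 0.0556), and it passed with DESeq2 (0.00251), limma-voom (0.0453), limma on the authors' normalized values (0.0482), without a filter (0.0165) and without WT 69 (0.00867). Its highest adjusted p was 0.188, without KO 51. Tnfrsf4 (OX40), Tnfrsf8 (CD30) and Tnfrsf25 (DR3) had at most 2.84 CPM in any library and did not pass.

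The costimulatory ligands were scarce, and 0 of the 4 tested passed in edgeR, with 1 at an unadjusted p under 0.05 (Tnfsf18). Tnfsf9, the ligand of 4-1BB, was at 3.59 and 2.49 CPM in KO and 2.45 and 3.34 CPM in WT (0.07 ± 0.40). The CD30 ligand gene Tnfsf8 was at 4.48 and 0.929 CPM in KO 51 and KO 63, against 0.428 and 1.28 CPM in WT, and overlapped. GITR ligand transcript, from Tnfsf18, came to 2 and 5 counts in KO and 18 and 15 in WT (-2.40 ± 0.78, adjusted p = 0.0826). Tnfsf4 had 6 to 20 counts per library. Cd70, the ligand of CD27, had 0 counts in both KO libraries and 1 in each WT library, and Tnfsf15 had 4 and 0 counts in KO and 0 and 1 in WT; both were left untested.

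Tnfrsf19 (TROY), an orphan receptor known from the developing nervous system and skin, had the largest fall of the 34 members tested. It was at 30.5 and 11.8 CPM in KO 51 and KO 63, against 124 and 205 CPM in WT 55 and WT 69. KO values did not reach those of WT, and the log2 fold change of -2.95 ± 0.51 (adjusted p = 0.0176) passed under each alternative, with the farthest value, -3.80, without KO 51. In WT it ranked 3 of the 38 members by CPM per kilobase of exon (26.2 and 43.2), after Tnfrsf13c (110 and 50.7) and Ltb (79.1 and 69.5), whose WT ranges overlap. In KO it ranked lower, at 6.44 and 2.50 CPM per kilobase, and Ltb (35.7 and 20.3), Tnfrsf14 (20.2 and 19.8), Tnfrsf1a (20.7 and 18.9) and Tnfrsf13c (15.6 and 21.9) came first. These ranks are by mean. The lower Ltb value, in KO 63, lay just above both Tnfrsf14 values, but below Tnfrsf13c in KO 63 and below Tnfrsf1a in KO 51. The ranges of Tnfrsf14, Tnfrsf1a and Tnfrsf13c overlap, also with that of Tnfrsf1b (20.7 and 15.3), which came next.

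Of the 4 genes of the TRAIL system, 0 passed by edgeR or by DESeq2, and 0 had an unadjusted p under 0.05 in edgeR. Tnfsf10 (TRAIL), a ligand that can trigger apoptosis, was among the more abundant members at 69.6 and 42.0 CPM in KO and 38.6 and 92.3 CPM in WT, with wide overlap (-0.23 ± 0.45, adjusted p = 0.747). Its death receptor gene Tnfrsf10b was at 4.61 and 2.65 CPM in KO and 2.14 and 0.902 CPM in WT (adjusted p = 0.174). Tnfrsf22 and Tnfrsf23, decoy receptors in the mouse, lie next to Tnfrsf26 on chromosome 7 (143607659 to 143685872), are close in sequence and may share reads. Tnfrsf22 had positive and Tnfrsf23 and Tnfrsf26 negative fold changes, from -1.09 to 0.87, with adjusted p-values from 0.0603 to 0.168. Tnfrsf26, singled out after its values were seen, passed with DESeq2 (0.0106), without a filter (0.0346) and without WT 55 (0.0140), and its highest adjusted p was 0.222, without KO 63. Tnfsf12 (TWEAK, 48.3% of its exon bases shared with a readthrough gene), its receptor Tnfrsf12a and the death receptor gene Tnfrsf21 had adjusted p-values from 0.142 to 0.778.

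**Figure D3:**
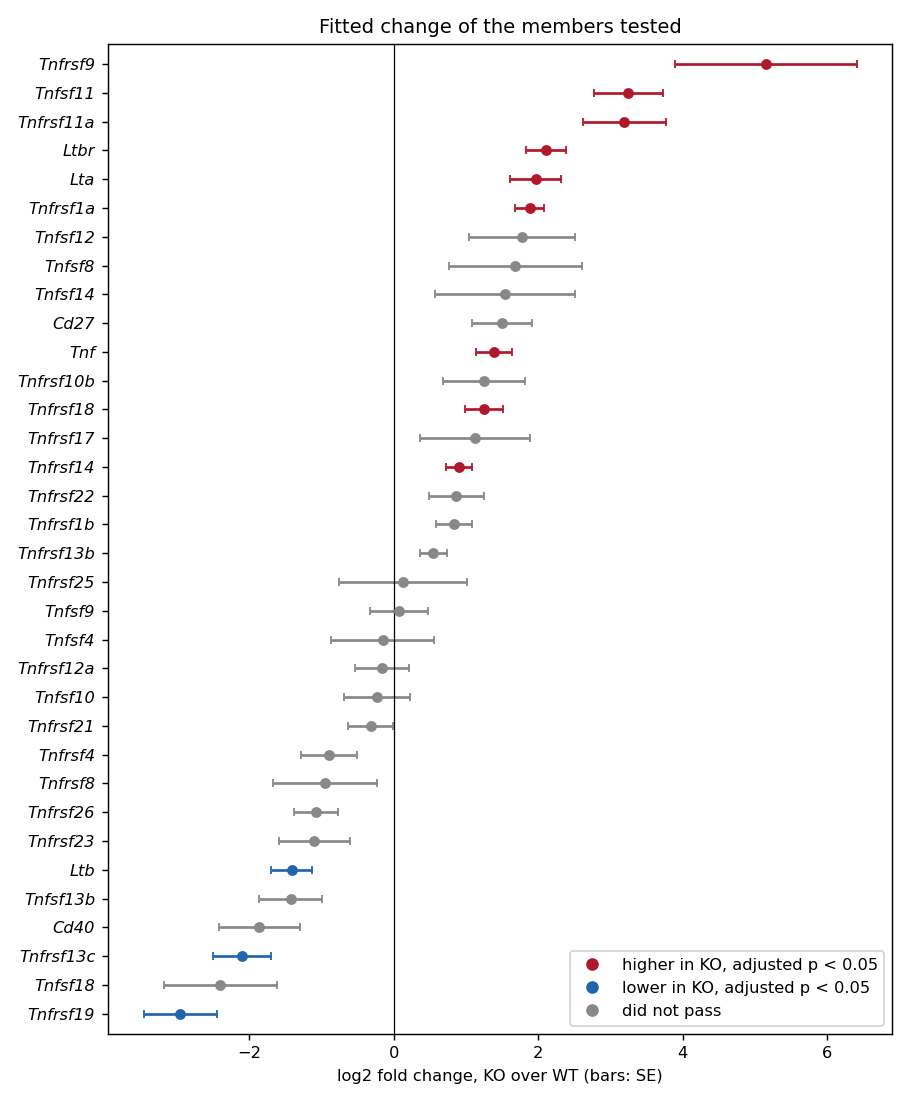
Fitted log2 fold change (KO over WT) of each of the 34 members tested, with its standard error, coloured by call. The 9 higher members run from 0.90 for Tnfrsf14 to 5.15 for Tnfrsf9, whose error is the widest, and the 3 lower ones are Ltb, Tnfrsf13c and Tnfrsf19.

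Ligands were set beside receptors known to bind them, in 23 pairs, of which 17 had both genes tested. The list of pairs is not complete. It leaves out, for example, Lta with Ltbr and Tnfsf10 with Tnfrsf22 or Tnfrsf23, so the counts hold for the listed pairs only. In 3 pairs both were higher in KO, namely Tnf with Tnfrsf1a, Lta with Tnfrsf1a and Tnfsf11 with Tnfrsf11a. In 1 pair the calls were opposite, with Ltb lower and Ltbr higher. There were 7 pairs with 1 gene called, among them Tnfsf13b with Tnfrsf13c and Tnfsf9 with Tnfrsf9, and 6 with none. Several genes stand in more than 1 pair, so the pairs are not independent.

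**Figure D4:**
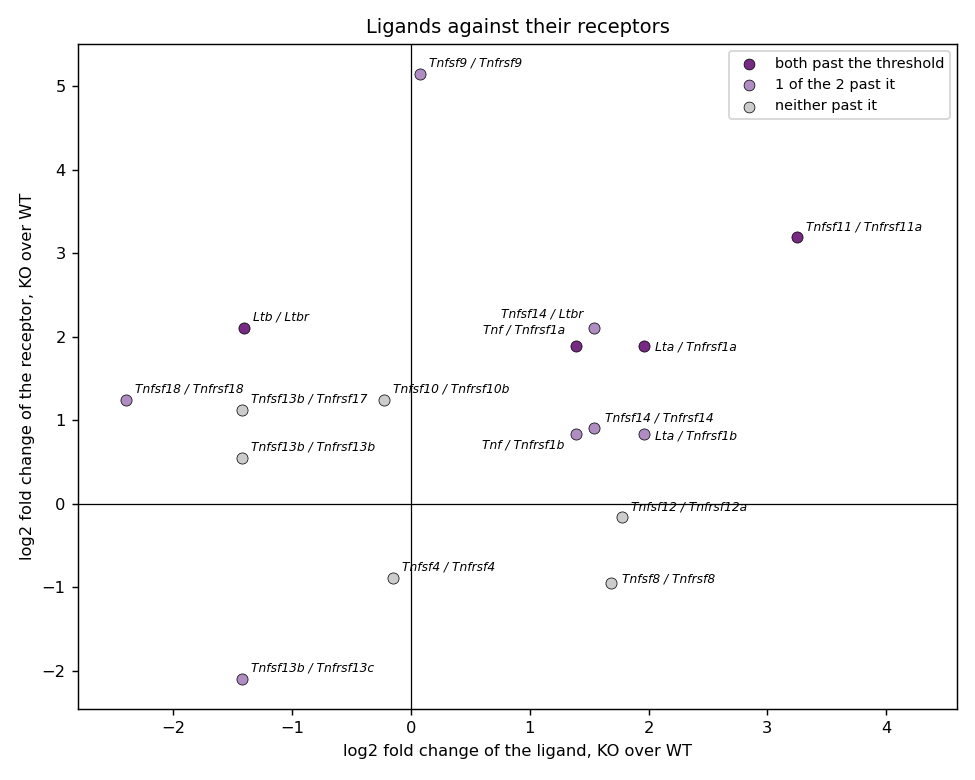
Log2 fold change (KO over WT) of each ligand on the horizontal axis and of its receptor on the vertical axis, for the 17 pairs with both tested, shaded by how many of the 2 genes passed. Tnfsf11 with Tnfrsf11a is at the upper right (3.25 and 3.19), and Ltb with Ltbr at the upper left (-1.41 and 2.11).

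Other genes of the pathway, on 7 lists, are given as counts, with no test against the members. Of 65 tested, 5 were higher (7.69%) and 7 lower (10.8%), with a median log2 fold change of -0.05. Of all genes tested, 11.3% were higher and 10.9% lower, with a median of -0.02, so neither share of the pathway genes exceeded that of all genes. The genes below are thus given singly. Family members outside the symbol rule included 2 that rose. Relt, a receptor of blood cells, was at 62.6 and 82.1 CPM in KO 51 and KO 63, against 28.0 and 30.6 CPM in WT 55 and WT 69 (1.30 ± 0.19, adjusted p = 0.0128). Fasl, the death ligand of cytotoxic cells, was at 8.84 and 0.929 CPM in KO 51 and KO 63, against 0.153 and 0.0752 CPM in WT (5.35 ± 1.31, adjusted p = 0.0402). The log2 fold change of Fasl was 2.95 without KO 51 (adjusted p = 0.106 by edgeR), 6.20 without KO 63 (0.00743) and 5.99 without WT 55 (0.0483), and its adjusted p was 0.127 with limma-voom. Of the 13 TRAF adaptors and partners 1 rose (7.69%) and 3 fell (23.1%). Traf1, an adaptor that NF-kappaB induces, rose to 35.1 and 22.7 CPM in KO 51 and KO 63, against 6.79 and 5.49 CPM in WT (2.24 ± 0.30, adjusted p = 0.0107). Traf5, which couples CD40 and CD27 among others, fell (-1.68 ± 0.32, adjusted p = 0.0215), as did Traf6 (-0.71 ± 0.14) and Traf3ip3 (-0.79 ± 0.13).

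NF-kappaB inhibitors had 3 of 9 lower (33.3%, beside 10.9% of all genes tested) and 0 higher in edgeR. Nfkbia, the classical inhibitor and itself an NF-kappaB target, was at 123 and 77.7 CPM in KO 51 and KO 63, against 412 and 220 CPM in WT 55 and WT 69 (-1.65 ± 0.37, adjusted p = 0.0324). Tnfaip3 (A20), an enzyme that ends TNF receptor signalling, was at 112 and 109 CPM in KO and 343 and 207 CPM in WT (-1.32 ± 0.26, adjusted p = 0.0235), and Nfkbid fell too (-1.20 ± 0.23). The list's median was 0.15, of the other sign than the members that fell. The 5 NF-kappaB subunit genes did not pass in edgeR, with 1 at an unadjusted p under 0.05 (Nfkb2, -0.83 ± 0.23, adjusted p = 0.0557). Of 14 genes of the IKK complex and ubiquitin machinery only Sharpin passed in edgeR (-0.67 ± 0.12, adjusted p = 0.0204), and of 11 in the death domain and caspase pathway only Ripk1, a kinase recruited by Tnfrsf1a (0.55 ± 0.14, adjusted p = 0.0437). Ripk1 missed the threshold with unscaled totals (0.0513) and without KO 51, KO 63 or WT 55 (0.225, 0.185 and 0.0941). Rhbdf2, the partner that the TNF-shedding protease ADAM17 needs, was at 158 and 165 CPM in KO 51 and KO 63, against 83.9 and 78.0 CPM in WT (0.99 ± 0.13, adjusted p = 0.00963), while Adam17 itself was at 0.20 ± 0.15 and did not pass. All 7 pathway genes that fell missed the threshold without KO 63, and 5 of them without KO 51.

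**Figure D5:**
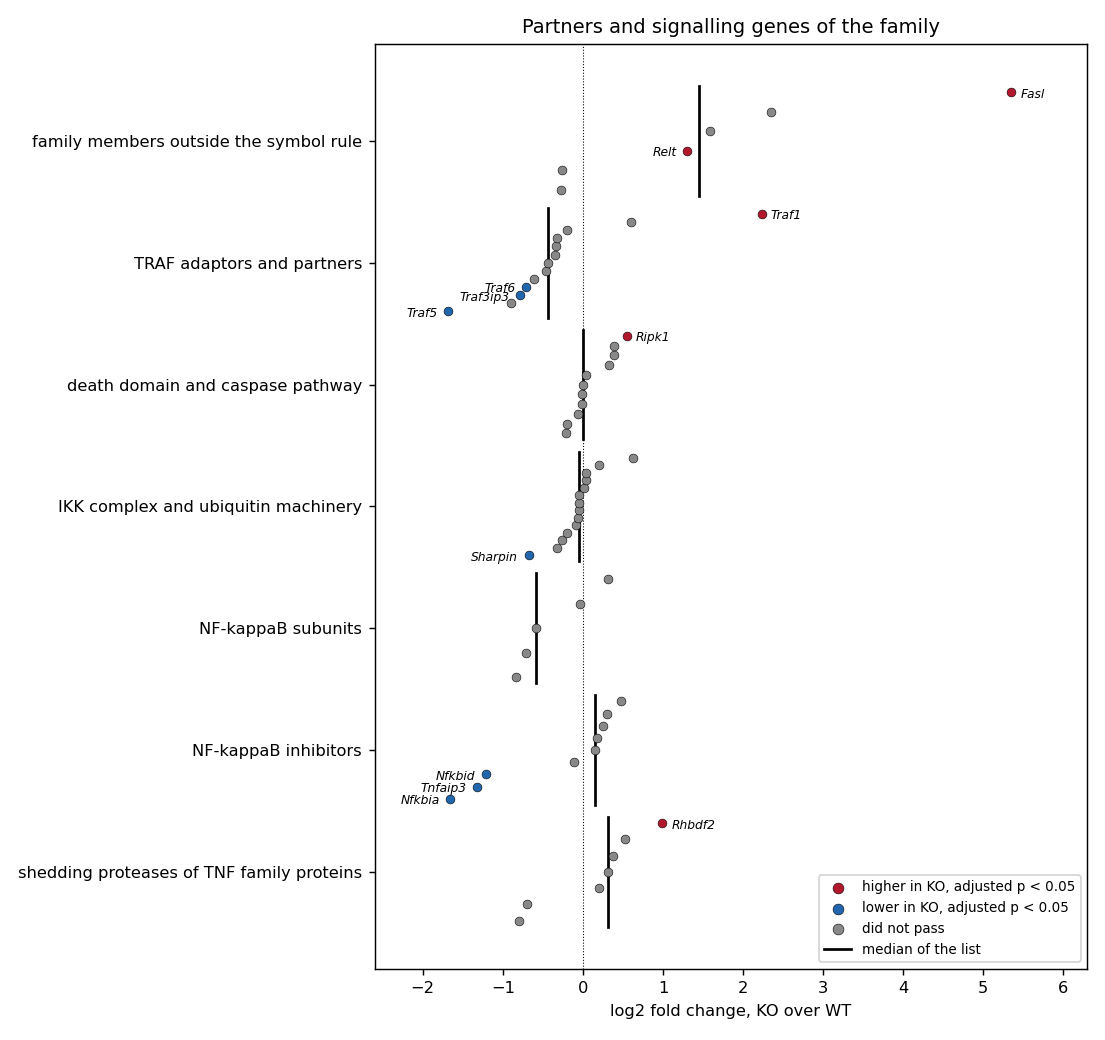
Log2 fold change (KO over WT) of the 65 tested pathway genes on the horizontal axis, by list, with the genes that passed named and a bar at each list's median. Traf1 and Rhbdf2 lie to the right and Nfkbia, Tnfaip3, Nfkbid and Traf5 to the left of 0.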

How the data were processed

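The authors deposited raw counts per gene symbol (24411 genes, 4 libraries). They also deposited normalized signal, which equals those counts times 1 factor per library (13021 rows, 20 of them with dates in place of symbols). Per the submitters' processing notes, the tools, given without roles, were featureCounts, DESeq2, STAR 2.7.4a, Subread 2.0.0, deepTools 3.3.2 and SAMtools 1.10, and the builds mm10 and GRCm38. No source used here gives the annotation, the strand setting or the treatment of multimapping reads, so 7 members whose exons overlap another gene are uncertain. Library preparation was a low input kit, and no molecular identifiers are described, so detection limits (3 counts) cover counting error only.

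Counts were filtered with filterByExpr (minimum count 10, total 15), scaled by TMM and fitted with edgeR 4.0.16 in R 4.3.3 (glmQLFit, glmQLFTest, all 4 libraries, no covariates), with Benjamini-Hochberg adjustment over 13507 genes. The fit called 1524 genes higher and 1468 lower. SE is the log2 fold change over the square root of F. The procedure was also run on simulated counts with 200 changed genes, far fewer than were called here, so that run does not measure its error rates in these data. Alternatives used DESeq2 1.42.0 and limma 3.58.1, with log2 of the authors' normalized values plus 1 for the latter. The members and lists were chosen with earlier results of these data known. Genes named are Tnpo3, every member that passed, every tested member of the BAFF and APRIL, TNF and lymphotoxin, costimulatory, RANK and TRAIL groups, and up to 4 passing genes per pathway list. Others (Tnfrsf26, Tnfsf12, Tnfrsf12a, Tnfrsf21, Nfkb2, Adam17, untested members and single markers) were picked after their values were seen. Exon lengths and overlaps are from GENCODE M21 (GRCm38), in which all 38 members were found. Leaving out a library leaves 1 in its genotype, which is then assumed to vary like the other pair. Promoter windows and motifs are descriptions, and the motifs were chosen with results known. The result of 1 mature B cell marker is not reported here.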

Additional observations from a re-analysis of the deposited data

How the results depend on the processing

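With 2 mice per genotype, 1 library can decide a call. The alternative at a false discovery rate of 0.1 is the main fit at a looser threshold, so it keeps every call by construction. Of the 12 members called, 4 (Tnfrsf1a, Ltbr, Tnfsf11 and Tnfrsf19) passed under all 12 alternatives, and 8 missed the threshold under at least 1, each in the direction first found. Leaving out 1 library gave 5 to 11 members higher and 2 to 4 lower, 747 to 1649 genes higher and 530 to 1580 lower, and 3 to 7 pathway genes higher and 0 to 13 lower. The 5 and the 3 were without KO 51, the 747, the 530 and the 0 without KO 63, and the 13 without WT 69; fewer libraries were fitted there. Members lower numbered 5 without a filter, 5 with DESeq2 and 7 at a false discovery rate of 0.1, where pathway genes lower numbered 11 (also 11 with DESeq2) and genes lower 2232. Fold changes turned sign when 1 library was left out for 8 members, none of them among the 12 called. Their log2 fold changes over the libraries left out ranged from -0.73 (KO 51) to 2.37 (KO 63) for Tnfsf14, from -1.57 (WT 55) to 0.23 (WT 69) for Tnfrsf8, from -0.95 (KO 51) to 1.41 (WT 55) for Tnfrsf25, from -0.97 (KO 51) to 0.33 (KO 63) for Tnfsf4, from -0.22 (KO 51) to 0.32 (WT 69) for Tnfsf9, from -0.69 (WT 55) to 0.53 (WT 69) for Tnfsf10, from -0.34 (WT 69) to 0.071 (WT 55) for Tnfrsf12a and from -0.63 (WT 55) to 0.14 (WT 69) for Tnfrsf21. No paired analysis was possible because the mouse numbers of the 2 genotypes are not shared.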
